A study of Mus musculus with 7 samples.

Results

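The genes described here are those that mark the cells of blood vessels in the mouse hypothalamus: 22 genes of endothelial cells, which line the vessels, and 10 genes of mural cells, the pericytes and smooth muscle cells that wrap them. Members were taken by gene symbol. A gene was measured where a probe set, the group of short probes that reads 1 transcript on the array, carried that symbol alone in the array's annotation. This held for 30 of the 32 genes, 20 endothelial and 10 mural, among 18193 genes measured in all. Ly6c1 shares its probe set with Ly6c2 and has no value of its own, and Ly6a was not analysed here. Where a gene had several probe sets, its values below are those of the brightest one, by mean over the 7 arrays.

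Hypothalami came from 3-month-old mice and were read on 7 mouse430_2 arrays, 1 per sample. The wild type gave 4 arrays. The genotype Creb-PomcCre-/-, in which a Cre recombinase expressed in Pomc cells deletes the transcription factor gene Creb, gave 3 arrays and is called the knockout below. Pomc neurons lie in the arcuate nucleus and release appetite-suppressing peptides, and the comparison asks which genes lie downstream of Creb in them. Vascular cells are not the cells in which the deletion was designed to act. The labels call the arrays of a group biological replicates. They do not say whether the wild-type mice carry the Cre transgene, nor whether a sample holds RNA of 1 mouse or of several. Values are the authors' deposited log2 expression values, on which a difference of 1 is a doubling, and every difference below is knockout minus wild type.

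Brain capillaries differ from those of most organs. Their endothelial cells are sealed by tight junctions, carry nutrients in and drugs out through dedicated transporters, and so form the blood-brain barrier. Pericytes lie on the capillary wall and depend on platelet-derived growth factor from the endothelium, while contractile smooth muscle cells surround arterioles. In the median eminence beside the arcuate nucleus, the capillaries are fenestrated and let hormones pass.

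Of the hypothalamic markers, the peptide gene Hcrt read 12.02 to 12.78 over the 7 arrays, and the mean level of 11 such markers was 10.10 to 10.43 in wild type and 10.31 to 10.37 in the knockout. The targeted gene did not check the genotype: Creb1 differed by -0.041 ± 0.054 (SE; limma over all probe sets, adjusted p = 0.816) and its 5 other probe sets by -0.11 to 0.18, and Pomc cells are a small part of this tissue. Wild-type arrays 1 and 4 and knockout array 1 came from females by Xist and the Y-linked transcripts, and the other 4 arrays from males. Array medians ran from 6.19 to 6.24. Limma over all genes called 2 genes at an adjusted p of 0.05, 0.011% of those tested, and over all probe sets 3, or 0.00666%. In a bulk sample, fewer cells of a type and less RNA in each cell cannot be told apart.

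No vascular gene passed the threshold. Among the 20 endothelial genes, 16 had a lower mean in the knockout and 4 a higher one, with a median difference of -0.075. Among the 10 mural genes, 5 were lower and 5 higher, with a median of -0.019. Over all genes, 48.5% had a lower mean and the median was 0.0036. The 0 calls among 30 genes (limma) stand beside 5 genes, or 16.7%, that were lower at an unadjusted p under 0.05, where 6.12% of all genes were. None was higher at that level, where 5.6% of all genes were. Every knockout array lay below every wild-type array for 3 of the 30 genes, or 10%, against 6.05% of all genes, and above for 0, against 6.09%. The 3 genes were Vwf, Pdgfrb and Cspg4, and the 5 were Vwf, Pdgfrb, Acta2, Slco1a4 and Egfl7. Such shares were not particular to vascular genes. Lower at an unadjusted p under 0.05 (limma) were 40% of neuron and 18.2% of microglia and macrophage markers. Below wild type without overlap were 50% and 18.2% of them. Both shares were 0% for astrocyte, oligodendrocyte and blood cell markers. Genes and lists were chosen with earlier results of these data known.

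**Figure D1:**
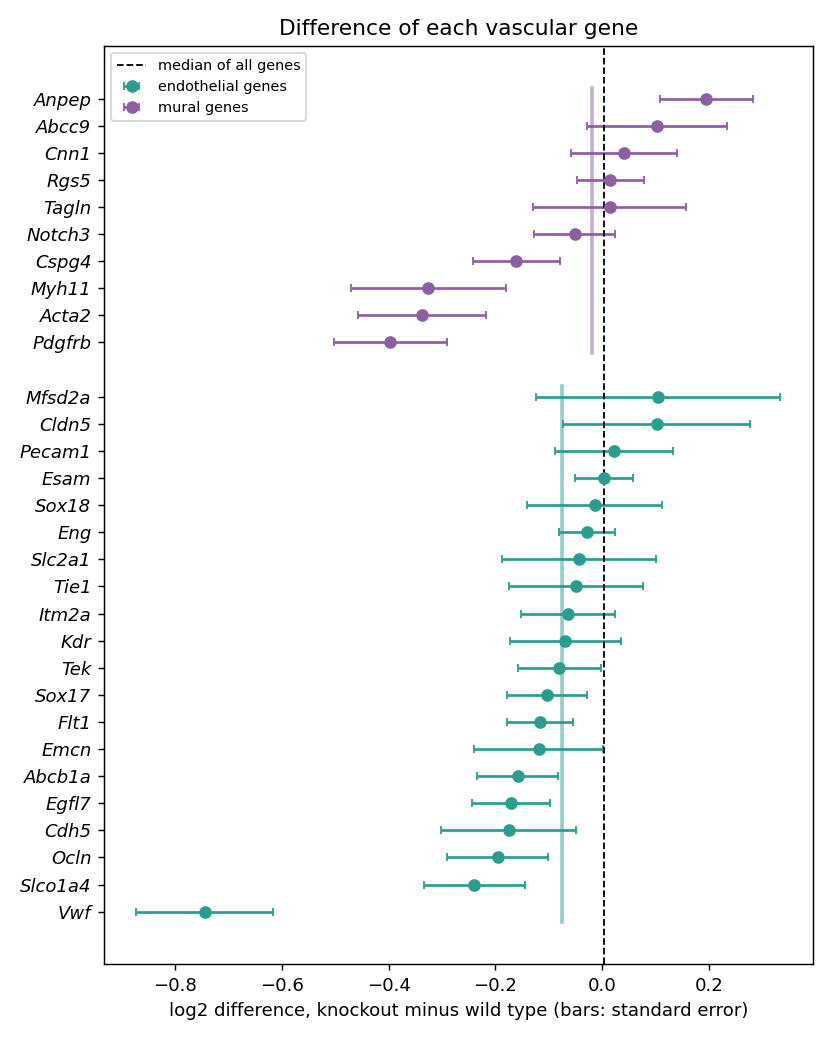
Log2 difference, knockout minus wild type, of each of the 30 measured genes (points) with limma's standard error (bars); the pale vertical lines mark the medians of the endothelial and mural genes, and the dashed line that of all genes. Vwf lies apart from the other endothelial genes at -0.74, and the mural genes split, with Pdgfrb, Acta2 and Myh11 between -0.40 and -0.33 and Rgs5, Tagln and Cnn1 between 0.014 and 0.040.

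Because the study is about a factor that binds the cyclic AMP response element, the promoters of the vascular genes were searched for it. RefSeq promoter windows (GRCm38.p6, 250 bases before to 50 after a start site) were matched by symbol for 22 of the 32 genes, in 26 windows. No window was matched for Vwf, Pdgfrb, Myh11, Tagln, Cdh5, Pecam1, Esam, Sox17, Sox18 and Ly6a, so their promoters were not searched. The full element TGACGTCA lay in 1 of these 26 windows, that of Flt1, or 3.85%, and in 1.79% of all 32851 windows. The shorter TGACG, read on both strands and also found inside the full element, lay in 4 of the 26 (15.4%) and in 20.8% of all windows. The CArG box, the element of smooth muscle promoters, was searched only as the exact string CCWWWWWWGG, where W is A or T. It was in 0 of the 26 and in 1.63% of all, and the 0 does not cover Myh11 and Tagln, which had no window. The SOX core ACAAT, on both strands, was in 6 of the 26 (23.1%) and in 31% of all. The stretches with a full or short cyclic AMP response element are shown because they are the places in these windows where the letters bound by CREB occur. Capitals mark the element, and each stretch runs 5′ to 3′ on the gene's strand.
Flt1 (chr5:147726012-147726261, minus strand, from 250 bases before the start site to the base before it): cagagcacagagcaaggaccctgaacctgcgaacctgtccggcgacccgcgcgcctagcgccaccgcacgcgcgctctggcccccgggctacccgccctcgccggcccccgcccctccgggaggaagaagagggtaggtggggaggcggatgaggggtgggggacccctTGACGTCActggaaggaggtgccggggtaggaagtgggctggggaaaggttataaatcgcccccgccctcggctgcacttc
Egfl7 (chr2:26583721-26583785, plus strand, before one of its 3 start sites): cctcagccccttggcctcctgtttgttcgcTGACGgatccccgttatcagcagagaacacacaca
Notch3 (chr17:32167040-32167104, minus strand): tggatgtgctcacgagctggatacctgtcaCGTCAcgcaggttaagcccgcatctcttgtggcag
Itm2a (chrX:107403361-107403406, minus strand): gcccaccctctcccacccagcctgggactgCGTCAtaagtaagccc
The 4 genes differed by -0.12 (Flt1), -0.17 (Egfl7), -0.052 (Notch3) and -0.064 (Itm2a), each within the range of the other vascular genes, and none passed. A match is a string of letters and not a measured binding site.

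Endothelial cells are held together by claudin-5 and occludin in tight junctions and by VE-cadherin, the product of Cdh5, in adherens junctions. Of 6 junction and adhesion genes, 3 were lower and 3 higher. Ocln read 7.36, 7.60, 7.59 and 7.40 in wild type and 7.32, 7.43 and 7.13 in the knockout, a difference of -0.20 ± 0.094 (SE; limma, adjusted p = 0.455). The groups overlapped through knockout array 2, and the other Ocln probe set differed by -0.14. Cldn5, the main claudin of the barrier, went the other way at 0.10 ± 0.18 (SE), with the highest of all 7 values in knockout array 2 (9.22) and the lowest in wild-type array 3 (8.43). Leaving out either array turned its sign, to -0.078 and to -0.0079. Cdh5 differed by -0.17 ± 0.13 (SE) and Emcn, an endothelial sialomucin, by -0.12 ± 0.12 (SE), with knockout array 3 the lowest of 7 for both (6.33 and 7.02). The Cdh5 and Emcn differences rested largely on that array: when it was dropped, they were -0.058 and -0.0034. Ocln was still at -0.12 without it. When wild-type array 3, its highest array, was dropped, Cdh5 was at -0.096. Cdh5 was at -0.30 and Emcn at -0.23 when knockout array 1 was dropped instead. Esam, an immunoglobulin-type adhesion molecule, had the same level in both groups, 7.96 ± 0.045 (SD, n = 4) and 7.96 ± 0.050 (SD, n = 3). Pecam1, another adhesion molecule of this family, differed by 0.022 from a dim probe set.

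The receptors of vessel growth were all lower in the knockout by small amounts. Flt1 and Kdr bind vascular endothelial growth factor, Tek and Tie1 form the angiopoietin receptor system, and Eng is a coreceptor for the transforming growth factor beta family. Their differences ran from -0.029 for Eng to -0.12 for Flt1, with adjusted p-values from 0.485 to 0.905 (limma). Flt1 read 8.70, 8.92, 8.77 and 8.78 in wild type and 8.71, 8.70 and 8.61 in the knockout. Its 2 other probe sets above the median level of all probe sets differed by -0.15 and -0.10, and a dim one by 0.025. The knockout group overlapped wild type at its upper end, and knockout array 3 was the lowest of 7. Kdr ran from 7.07 to 7.46 in wild type and from 7.09 to 7.36 in the knockout, so that the groups shared nearly their whole range. Its difference of -0.069 became -0.0049 when wild-type array 1 was dropped. Tek and Eng, at -0.081 and -0.029, were at -0.034 and -0.0078 when knockout array 3 was dropped. Tie1 was lower through knockout array 3 alone, at 4.64 against 4.89 to 5.14 in the other 6 arrays, and differed by 0.11 without it.

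By median SD, the barrier transporters varied more between arrays than the receptors did. The median SD of the 4 genes was 0.18 in wild type and 0.25 in the knockout, against 0.098 and 0.11 for the 5 receptors. It did not hold for each gene, as the SD was 0.078 for Slco1a4 in wild type and 0.035 for Abcb1a in the knockout. Slco1a4, which carries organic anions and thyroid hormone, read 9.68, 9.73, 9.83 and 9.84 in wild type and 9.36, 9.78 and 9.45 in the knockout, a difference of -0.24 ± 0.095 (SE; limma, adjusted p = 0.39). Knockout arrays 1 and 3 lay below wild type and knockout array 2 within it. Abcb1a, the drug efflux pump P-glycoprotein, read 8.16, 8.32, 8.48 and 8.26 against 8.13, 8.18 and 8.12, or -0.16 ± 0.076 (SE; limma, adjusted p = 0.455). Only wild-type array 1 reached into the knockout range, and the other Abcb1a probe set differed by -0.19. Without wild-type arrays 2 and 3 the Abcb1a difference was -0.061.

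The glucose transporter Slc2a1 and the lipid transporter Mfsd2a showed a pattern between arrays that did not follow genotype. Mfsd2a read 8.54, 8.76, 9.03 and 9.36 in wild type and 8.51, 9.33 and 9.24 in the knockout. Slc2a1 read 11.02, 11.23, 11.41 and 11.52 against 10.98, 11.22 and 11.55. For both genes wild-type array 1 and knockout array 1 were the lowest pair, and wild-type array 4 was the highest for Mfsd2a and next to the highest for Slc2a1. All 3 Slc2a1 probe sets placed these same 2 arrays lowest. The differences were 0.10 ± 0.23 (SE) for Mfsd2a and -0.044 ± 0.14 (SE) for Slc2a1, and with an array left out they ran from -0.046 to 0.36 and from -0.19 to 0.092. The same 2 arrays had the lowest mean level over 8 oligodendrocyte markers, 11.31 and 11.32 against 11.49 to 11.76 in the others. Wild-type array 4 was from a female as they were. The part of cell content or of sex in this pattern was not tested.

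**Figure D2:**
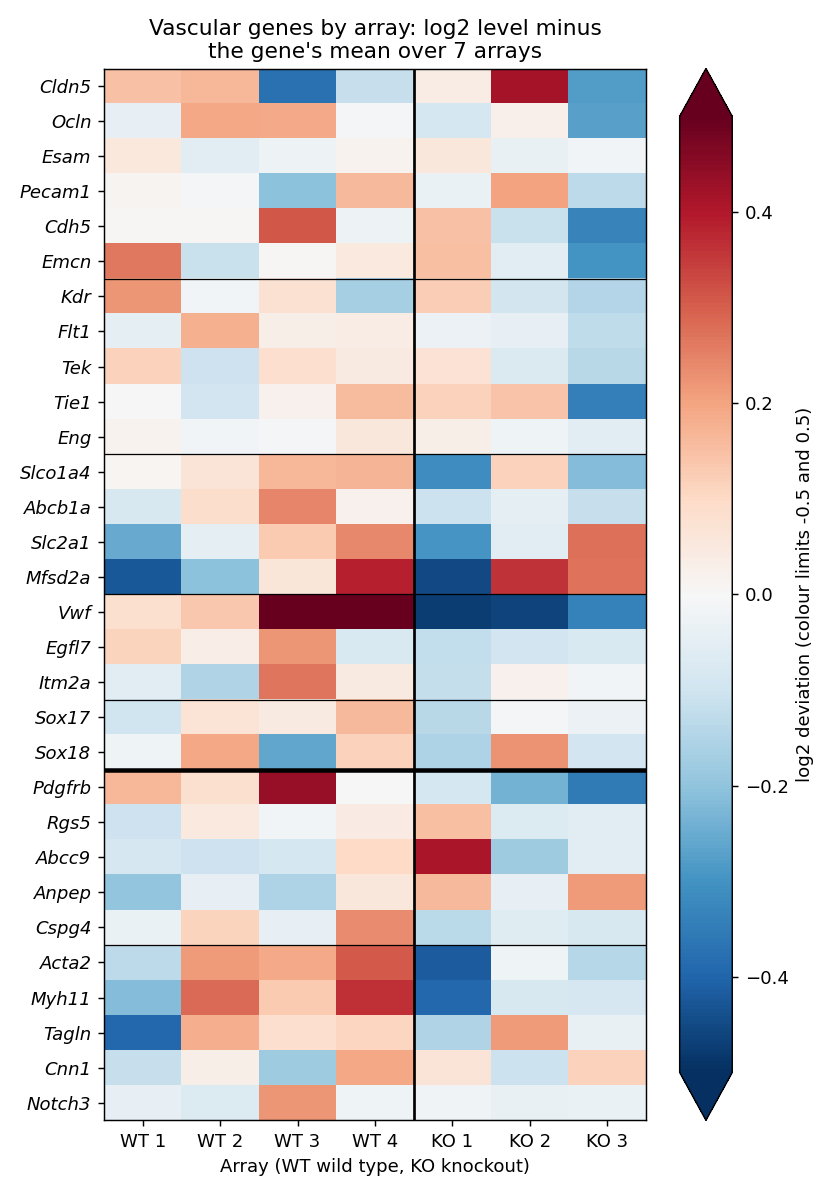
Log2 level of each of the 30 vascular genes (rows, grouped by role, endothelial above the thick line and mural below it) in each array (columns), as the deviation from the gene's mean over the 7 arrays, with colours limited at -0.5 and 0.5. Vwf and Pdgfrb separate by genotype, whereas Mfsd2a, Slc2a1 and Tagln have low values in wild-type array 1 and knockout array 1.

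Vwf had the largest difference of all 30 genes. It encodes von Willebrand factor, a clotting protein that endothelial cells store and release and that is more abundant in larger vessels than in capillaries. It read 6.29, 6.34, 6.73 and 6.75 in wild type and 5.74, 5.75 and 5.87 in the knockout. All knockout arrays lay below all wild-type arrays, and wild type itself fell into 2 lower and 2 higher arrays. The means were 6.53 ± 0.25 (SD, n = 4) and 5.78 ± 0.074 (SD, n = 3), a difference of -0.74 ± 0.13 (SE), or 1.67-fold higher in wild type. The unadjusted p was 0.000282 and the call was not made over all genes (limma, adjusted p = 0.171). With each array left out in turn the difference ran from -0.82 to -0.67, with adjusted p-values no lower than 0.077, and it was -0.74 without wild-type arrays 2 and 3. Vwf has a single probe set, whose mean lies just under the median level of all probe sets, and these values carry no detection call. Platelets also contain Vwf, and no platelet gene was among the markers read, so their part was not tested.

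Of the other endothelial proteins, Egfl7, a secreted factor of growing vessels, read 8.27, 8.19, 8.37 and 8.08 in wild type and 8.03, 8.06 and 8.08 in the knockout. All knockout arrays lay below 3 of the wild-type arrays, with wild-type array 4 at their upper end, and the difference was -0.17 ± 0.073 (SE; limma, adjusted p = 0.414). Its 3 other probe sets differed by -0.057, 0.0060 and 0.034. Itm2a, a membrane protein abundant in brain endothelium, differed by -0.064 ± 0.088 (SE), or 0.016 without wild-type array 3, its highest array at 11.90. The transcription factors Sox17 and Sox18, which act in arterial and lymphatic endothelium, differed by -0.10 ± 0.074 (SE) and -0.014 ± 0.13 (SE). The second Sox17 probe set differed by 0.0029, so that the lower value rests on 1 of 2 probe sets.

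The pericyte genes did not move together. Pdgfrb encodes the receptor for platelet-derived growth factor on pericytes and on fibroblasts. It read 9.16, 9.07, 9.43 and 8.99 in wild type and 8.90, 8.76 and 8.64 in the knockout. The groups did not overlap, with wild-type array 4 and knockout array 1 nearest to each other. Wild type was 1.32-fold higher, a difference of -0.40 ± 0.11 (SE) that missed the threshold (limma, adjusted p = 0.271). The other Pdgfrb probe set differed by -0.089, with overlap. Left-out arrays moved the difference between -0.47 and -0.31, and it was -0.31 without wild-type arrays 2 and 3.

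Cspg4, the NG2 proteoglycan of pericytes and of oligodendrocyte precursors, read 7.004, 7.15, 6.997 and 7.27 in wild type against 6.90, 6.98 and 6.96. The groups did not overlap but nearly touched, with a difference of -0.16 ± 0.081 (SE; limma, adjusted p = 0.475). The second Cspg4 probe set differed by -0.26 ± 0.085 (SE), also without overlap (limma over all probe sets, adjusted p = 0.37). Pdgfra, which marks the same precursors and not pericytes, differed by -0.10 ± 0.061 (SE), and its 2 other probe sets by -0.088 and 0.27.

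The remaining pericyte genes were not lower. Rgs5, a regulator of G protein signalling abundant in pericytes, read 10.54, 10.69, 10.63 and 10.68 in wild type and 10.79, 10.57 and 10.59 in the knockout, a difference of 0.015 ± 0.063 (SE). Abcc9, a subunit of the vascular potassium channel, was higher by 0.10 ± 0.13 (SE) on its main probe set and by 0.17 and 0.41 on 2 dim ones. Its main value rests on knockout array 1 at 8.02, above 7.43 to 7.71 in the other arrays, and was -0.072 without it. The 0.41 rests on the same array, at 4.77 against 3.70 to 3.98 in the others. Anpep, an aminopeptidase of pericytes, differed by 0.19 ± 0.087 (SE) at levels of 3.49 to 3.90, among the dim probe sets.

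The contractile genes of smooth muscle also divided. Acta2, smooth muscle actin, read 8.80, 9.14, 9.12 and 9.24 in wild type and 8.51, 8.91 and 8.79 in the knockout, a difference of -0.34 ± 0.12 (SE; limma, adjusted p = 0.353). Knockout array 2 lay above wild-type array 1, and the other 3 wild-type arrays above all knockout arrays. Myh11, smooth muscle myosin heavy chain, also overlapped through wild-type array 1 alone. It read 6.18, 6.68, 6.53 and 6.76 against 6.005, 6.32 and 6.31, or -0.33 ± 0.14 (SE; limma, adjusted p = 0.431). The second Myh11 probe set, which is dim, differed by 0.24. The 2 dim probe sets of Acta2 differed by -0.081 and 0.021. With all probe sets of a gene averaged, the differences became -0.13 for Acta2 and -0.042 for Myh11.

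Tagln, an actin-binding protein of the same contractile programme, was not lower. It read 7.45, 8.03, 7.93 and 7.95 in wild type and 7.70, 8.06 and 7.81 in the knockout, a difference of 0.014 ± 0.14 (SE). Without wild-type array 1, its lowest array, the difference was -0.12, and without knockout array 2, its highest, -0.088. Cnn1, calponin, was dim at 3.45 to 3.82 and differed by 0.040. Notch3, the receptor through which endothelial ligands maintain mural cells, read 8.26 in wild-type array 3 and 7.97 to 8.02 in the 6 other arrays, and differed by -0.052 ± 0.075 (SE). Myh11 and Tagln had their lowest 2 values in wild-type array 1 and knockout array 1, as Mfsd2a and Slc2a1 did. Within each group, Acta2 was also lowest in these arrays.

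**Figure D3:**
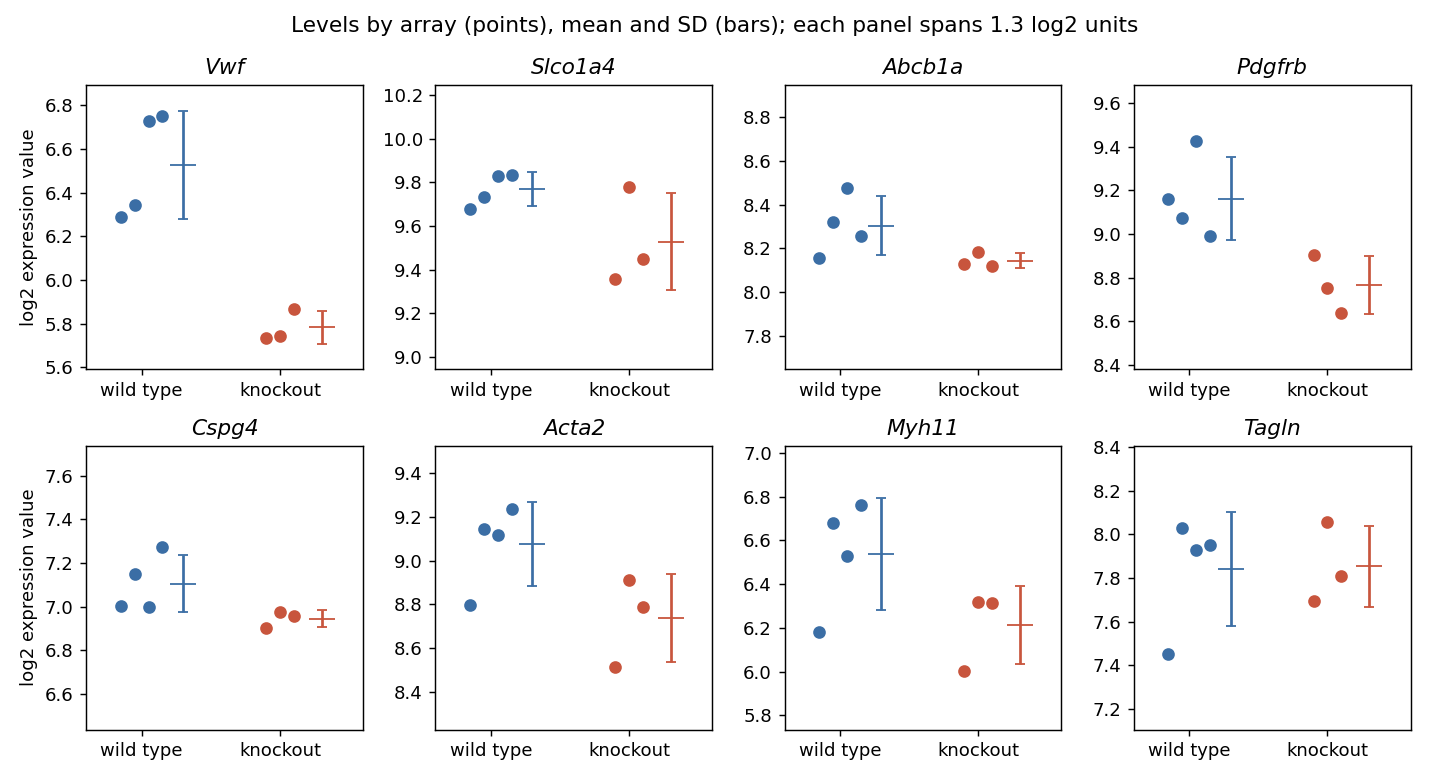
Log2 level of 8 vascular genes by array (points, wild type blue and knockout red), with the mean and SD of each group (n = 4 and n = 3); each panel spans 1.3 log2 units. The groups do not overlap for Vwf, Pdgfrb and Cspg4, and overlap for the other 5 genes.

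Of the 30 genes, 16 had more than 1 probe set, and in 9 of these all probe sets differed in the same direction. They were Ocln, Cdh5, Eng, Abcb1a, Slc2a1, Itm2a, Pdgfrb, Cspg4 and Abcc9, of which Abcc9 alone was higher. The Abcc9 probe sets all had their highest value in knockout array 1. Of all 55 probe sets of the vascular genes, 35 were lower in the knockout and 0 passed over all probe sets (limma, lowest adjusted p = 0.169). Of the 7 genes whose probe sets disagreed in sign, Myh11 had the widest gap, from -0.33 to 0.24.

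**Figure D4:**
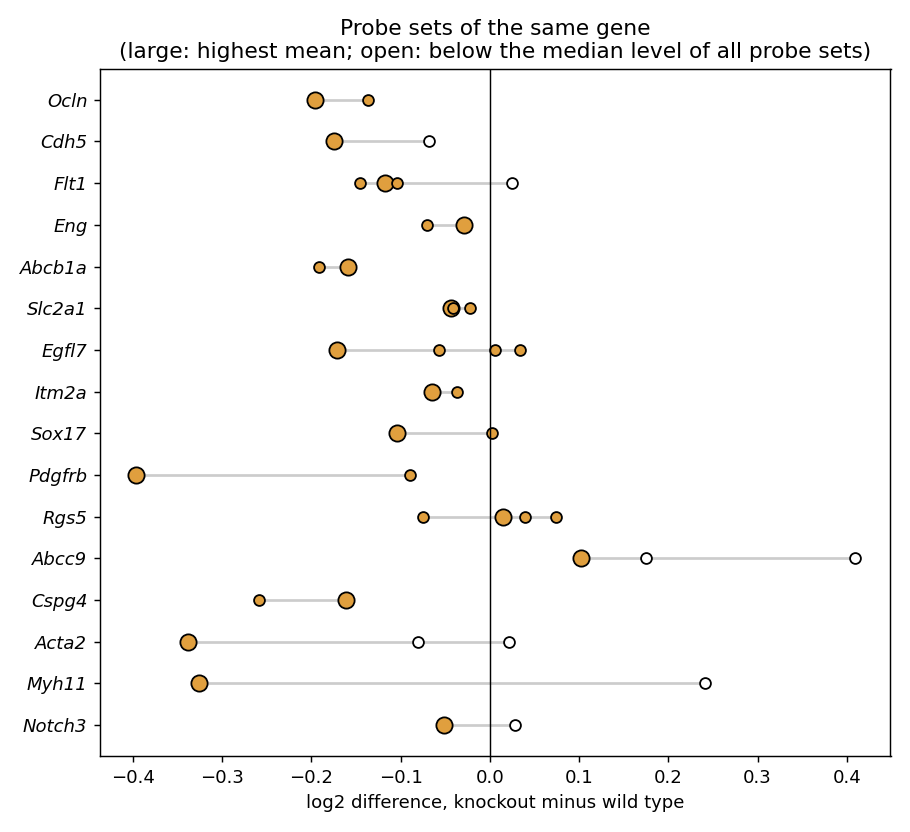
Log2 difference, knockout minus wild type, of every probe set of the 16 vascular genes with more than 1; large symbols are the highest-mean probe set and open symbols lie below the median level of all probe sets. Both Cspg4 and both Abcb1a probe sets lie below 0, whereas the Myh11 probe sets lie on either side of it.

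The direction of the endothelial class held with any 1 array left out, with 14 to 19 of 20 genes lower and a median below 0 each time, while its size and the mural median moved with single arrays. The mean level over the 20 endothelial genes was 7.96, 7.98, 8.03 and 8.05 in wild type and 7.88, 7.98 and 7.83 in the knockout. Knockout array 3 held the lowest value of 8 of the 20 genes and knockout array 1 that of 6. The median endothelial difference was -0.13 without knockout array 1 or without knockout array 2, and -0.046 without knockout array 3. Over the 10 mural genes the mean level was 7.17, 7.35, 7.34 and 7.42 in wild type and 7.24, 7.22 and 7.23 in the knockout, so that wild-type array 1 was the lowest of 7. Without that array the mural median was -0.094, with 7 of 10 genes lower, and without wild-type array 3 it was 0.000046. With dim probe sets dropped, 8 mural genes were left and their median was -0.11.

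Other genes of the vessel wall were read from lists beyond the 30 genes, and 0 of their members passed (limma). Of 32 further endothelial genes 22 were lower, with a median of -0.065. Ptprb, the vascular endothelial protein tyrosine phosphatase that restrains Tek, differed by -0.19 ± 0.057 (SE; limma, adjusted p = 0.289), from 8.21 to 8.36 in wild type to 8.02 to 8.13 in the knockout without overlap. Its 2 other probe sets differed by -0.14 and 0.080. All knockout arrays lay below wild type for 3.12% of these 32 genes, against 6.05% of all genes. Slco1c1, the thyroxine transporter of the barrier, was higher by 0.23 ± 0.079 (SE; limma, adjusted p = 0.341), unlike its relative Slco1a4. Adgrf5 and Cd93 differed by -0.16 and -0.28, and the 5 Cd93 probe sets disagreed in sign.

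Of 14 genes of arterial, venous and fenestrated endothelium 8 were lower, with a median of -0.046. Ackr1, a chemokine receptor of venules, differed by -0.21 ± 0.10 (SE), Nr2f2, a venous transcription factor, by -0.12, and the dim arterial connexin Gja5 by 0.14. Mgp, a matrix protein of arteries and fibroblasts, differed by -0.82 ± 0.34 (SE), with wild-type array 3 at 10.45 and the others at 8.25 to 9.69. Plvap, the diaphragm protein of fenestrated capillaries, is known from the median eminence. It differed by -0.15 ± 0.13 (SE) with overlapping groups.

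Of 24 further mural genes 17 were lower, with a median of -0.10. Cald1, which binds actin in smooth muscle, differed by -0.21 ± 0.080 (SE), with its 5 probe sets all below 0. Aoc3, an amine oxidase of smooth muscle, differed by -0.26 from a dim probe set. Higd1b, a pericyte mitochondrial gene, was higher by 0.17 ± 0.071 (SE) and Myocd, the coactivator that drives the contractile genes, by 0.23 ± 0.069 (SE) at a dim level of 4.15 to 4.52. For both, all knockout arrays were above wild type, as they were for 8.33% of the 24 genes and 6.09% of all genes. The adjusted p of the 4 genes lay between 0.308 and 0.403 (limma).

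Of 29 genes of vessel growth and maturation signals 15 were lower, with a median of -0.016. Pgf, the placental growth factor that binds Flt1, read 7.96, 7.92, 7.90 and 8.02 in wild type and 8.21, 8.14 and 8.26 in the knockout. The groups did not overlap, with a difference of 0.26 ± 0.056 (SE; limma, adjusted p = 0.231). All knockout arrays were above wild type for 3.45% of the 29 genes, against 6.09% of all genes. Wnt7a, a Wnt ligand that induces the barrier, differed by 0.23 ± 0.083 (SE), and Ctnnb1, the beta-catenin through which it acts, by -0.11 ± 0.033 (SE). The 2 other Wnt7a probe sets differed by -0.055 and 0.014, while all 3 Ctnnb1 probe sets were lower. Jag1, a Notch ligand, differed by -0.22 ± 0.097 (SE), with 1 of its 3 probe sets higher.

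Of 12 basement membrane genes 9 were lower, with a median of -0.089. The collagens Col4a1 and Col4a2, which form the sheet shared by endothelium and pericytes, differed by -0.27 ± 0.10 (SE) and -0.30 ± 0.10 (SE), Fn1 by -0.54 ± 0.23 (SE) and Nid2 by -0.25 ± 0.11 (SE), with adjusted p-values from 0.343 to 0.416 (limma). The second Fn1 probe set differed by 0.15.

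Markers of meninges and fibroblasts, cells that also express Pdgfrb, Fn1 and Mgp, were uneven between arrays. Of 13 such markers 11 were lower, and their mean level was 6.50, 7.36, 8.07 and 6.56 in wild type and 6.47, 6.81 and 6.39 in the knockout. The high arrays were wild-type arrays 2 and 3. Igfbp2 and Bmp6, the 2 with the smallest p, differed by -1.17 ± 0.48 (SE) and -0.73 ± 0.27 (SE). Without those 2 arrays 18 of 20 endothelial genes and 5 of 10 mural genes were lower, with medians of -0.072 and -0.0075. They were also the only males in wild type, so leaving them out changed the balance of sexes as well. The 2 wild-type females then stood against 1 female and 2 males in the knockout. Sex and meningeal content were not separated in that fit. In wild-type arrays 2 and 3, Vwf read 6.34 and 6.73, and in arrays 1 and 4, where the meningeal markers were low, 6.29 and 6.75. These values hold no zero, so that no marker can be called absent.

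Other marker lists also differed between arrays. The blood cell markers were highest in knockout array 2, where Camp read 6.45 against 5.03 to 5.60 in the other arrays, and that array also held the highest Cldn5. Their mean level was 4.80 to 5.08 in wild type and 5.03, 6.34 and 5.02 in the knockout. Of the 8 measured, 7 had higher knockout means, with Camp at 0.58 and Slc4a1 at 0.46, both from dim probe sets. Slc4a1 read 4.92 in knockout array 2 and 3.70 to 4.19 in the other arrays, and its 2 other probe sets differed by 0.045 and 0.14. The microglia and macrophage markers had lower knockout means in 7 of 11, with Fcrls at -0.88 and Csf1r at -0.16. Fcrls read 7.95 to 8.26 in wild type and 6.98 to 7.35 in the knockout (limma, adjusted p = 0.0624), an adjusted p below that of Vwf. The mean level of the microglia and macrophage markers was 8.14 to 8.24 in wild type and 8.004 to 8.22 in the knockout. Of 10 neuron markers 8 were lower, with Rbfox3 at -0.18 and Meg3 at -0.14, and a mean level of 11.81 to 11.92 in wild type and 11.76 to 11.80 in the knockout. Of 8 astrocyte markers 7 were higher, with Gfap at 0.25 and S100b at 0.15, and levels of 11.38 to 11.47 and 11.47 to 11.52. Of 7 choroid plexus markers 6 were lower, with Sostdc1 at -0.23 and Kl at -0.22, and levels of 5.94 to 6.27 and 5.86 to 5.92. The 6.27 was wild-type array 2 alone, and the other arrays read 5.86 to 5.96. That array also had the lowest mean of the hypothalamic markers, 10.10 against 10.31 to 10.43. Thalamic and habenular markers, from tissue beside the hypothalamus, were lower in 9 of 11, with Amotl1 at -0.17 and Pou4f1 at 0.27. Pou4f1 was dim and rested on knockout array 3, at 4.14 against 3.25 to 3.60 in the other arrays. Its other probe set differed by -0.030. The levels of this list were 8.43 to 9.58 and 8.50 to 8.99, with wild-type array 2 at 9.58 and the other arrays no higher than 9.09. Of 8 oligodendrocyte markers 5 were lower, with Cnp at -0.14. Beside the endothelial median difference of -0.075, the medians were -0.076 for neuron, -0.072 for microglia and macrophage and -0.078 for oligodendrocyte markers. They were -0.17 for thalamic and habenular, -0.21 for choroid plexus, 0.053 for astrocyte and 0.43 for blood cell markers. A median this far below 0 was thus not particular to the endothelial genes. The part of these cells in the vascular values was not tested.

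**Figure D5:**
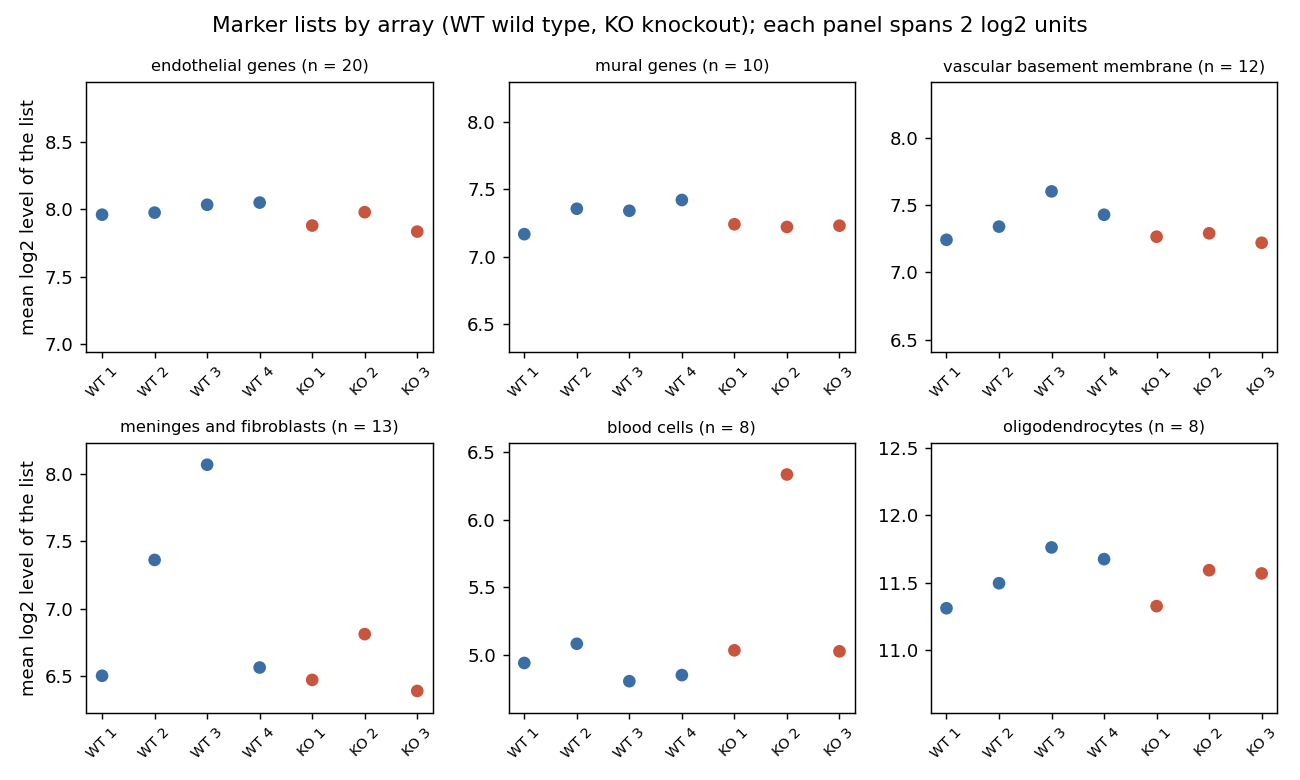
Mean log2 level of 6 gene lists in each array (points, wild type blue and knockout red); each panel spans 2 log2 units and n is the number of genes. The meningeal list stands at 7.36 and 8.07 in wild-type arrays 2 and 3 and the blood cell list at 6.34 in knockout array 2, while the endothelial genes stay within 7.83 to 8.05 and the mural genes within 7.17 to 7.42.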

How the data were processed

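The authors deposited log2 values of 45101 probe sets on 7 arrays. Per the submitters' processing notes, R 2.10.0, affy and RMA were used, in no stated order and with no stated settings; RMA usually normalizes between arrays and gives no detection call. Control probe sets (64) were dropped. Of the remainder, 34945 carried 1 symbol, 932 several and 9160 none, in an annotation of the platform; symbols were checked by gene identifier against RefSeq (GRCm38.p6), and 0 changed.

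Groups were compared with limma 3.58.1 in R 4.3.3 (eBayes with trend, two-sided), Benjamini-Hochberg adjusted over all genes, or over all 45037 probe sets where stated, at 0.05. The fit was also run on simulated data with independent noise for each gene and array. Such data lack the differences between arrays that many genes share here, and no result above rests on them. SEs come from limma and SDs from the arrays of a group; the number of arrays limits the precision. A probe set is called dim where its mean is under the median of all, 6.22. Members and lists were chosen with earlier results of these data known. Named genes are all members, up to 4 of each other vascular list and up to 2 of each list of other cells by smallest unadjusted p, and Creb1; Plvap was named outside this rule. Deviations from group means correlated between same-numbered arrays of the 2 groups at 0.32, 0.10 and 0.14 over genes, each above 0.1. On that ground the replicate number was also used as a block. Differently numbered arrays correlated at -0.32 to 0.13 and the labels state no pairing, so these values do not show one. Sex was read from Xist, Eif2s3y, Kdm5d and Uty. Promoter searches and plots used Python 3.11.15 and matplotlib 3.10.9. Alternatives were a left-out array, other probe set rules, array weights, quantile normalization, sex as a covariate, no trend, a threshold of 0.1 and wild type without arrays 2 and 3. The last of these left only females in wild type.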

Additional observations from a re-analysis of the deposited data

Results flagged for a closer look

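In 4 of 32 sets of wild-type values, 1 array stood further from the other 3 than Dixon's critical value for 4 samples allows. Chance gives about 1 in 20 for a single set. The sets were read on the same 4 arrays and are not independent, so their count is no test against that rate. Cdh5 read 6.97 in wild-type array 3 and 6.64 to 6.67 in the others. Notch3 read 8.26 in the same array and 7.97 to 8.02 in the others. Abcc9 read 7.71 in wild-type array 4 and 7.51 to 7.52 in the others. Tagln read 7.45 in wild-type array 1 and 7.93 to 8.03 in the others.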

How the results depend on the processing

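No vascular gene passed the threshold under any alternative run, and Vwf came nearest without wild-type array 1 (limma, adjusted p = 0.077). Over all genes the count of 2 became 7 with array weights, 1 with the mean of all probe sets of a gene, 8 at an adjusted p under 0.1, and 2 to 21 with an array left out (21 and 6 when wild-type arrays 1 and 2 were dropped in turn, 8 when knockout array 1 was). Over probe sets the count of 3 became 5 with sex as a covariate, 17 at 0.1, and 3 to 46 with an array left out (46, 12 and 16 for the same 3 arrays, 9 and 5 for knockout arrays 2 and 3). The mural median was -0.11 without dim probe sets and -0.094 to 0.000046 with an array left out, and 8 mural genes were lower with array weights. Left-out arrays moved the endothelial median between -0.13 and -0.046. With the replicate block over arrays 1 to 3, the fit called 2 genes and 2 probe sets and the medians were -0.071 and -0.018; Slc2a1 (0.031) and Sox18 (0.021) changed sign there, and no call changed. Signs also changed for Esam (-0.00041), Rgs5 (-0.0017), Tagln (-0.0025) and Cnn1 (-0.0021) with array weights, for Tagln (-0.030) with sex as a covariate, and for Esam (-0.032), Pecam1 (-0.077), Cnn1 (-0.016) and Notch3 (0.00083) without wild-type arrays 2 and 3. With an array left out, the sign changed within -0.078 to 0.27 for Cldn5, -0.024 to 0.024 for Esam, -0.072 to 0.093 for Pecam1, -0.19 to 0.092 for Slc2a1, -0.046 to 0.36 for Mfsd2a, -0.12 to 0.016 for Itm2a, -0.13 to 0.058 for Sox18, -0.14 to 0.11 for Tie1, -0.056 to 0.054 for Rgs5, -0.072 to 0.22 for Abcc9, -0.12 to 0.093 for Tagln, -0.013 to 0.11 for Cnn1 and -0.082 to 0.014 for Notch3. Without a sign change, left-out arrays moved Slco1a4 within -0.37 to -0.15, Abcb1a within -0.21 to -0.10, Cspg4 within -0.20 to -0.11 and Sox17 within -0.15 to -0.064. The causes were not tested. Dim probe sets, among them those of Vwf, Pecam1, Tie1, Anpep and Cnn1, carry no detection call in these values.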
